A study of Mus musculus with 12 samples.

Results

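The SOX transcription factor genes known from neural and glial cells, other than Sox10, were followed across glioblastoma cultures and neural stem cell (NSC) cultures of the mouse. They were Sox1, Sox2, Sox3, Sox21, Sox4, Sox11, Sox5, Sox6, Sox8 and Sox9, and they were found as the probe sets whose platform annotation gives exactly 1 gene symbol, that of a member. All 10 genes were found, each with 1 such probe set, among 21780 probe sets with 1 symbol that stand for 19934 genes.

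SOX proteins bind DNA through an HMG box, the domain of the sex-determining factor SRY, and fall into groups by the likeness of that box. The SOXB1 factors hold neural progenitors in their undifferentiated state and the SOXB2 factor SOX21 acts against them. SOXC factors act in differentiating neurons and in progenitors, SOXD factors lack a transactivation domain of their own and act beside other SOX factors, and SOXE factors specify and mature glia. In the oligodendrocyte lineage the SOXD factors SOX5 and SOX6 are known to restrain the SOXE factors SOX9 and SOX10.

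The study asked how the cell in which a glioblastoma starts shapes the tumour cells. The tumours were raised in adult Arf-/- mice, which lack a tumour suppressor encoded at Cdkn2a, by injecting chicken DF-1 cells that release an RCAS virus encoding PDGFB with an HA tag. The mice carry tv-a, the receptor that lets the virus in, under the promoter of Gfap (G/tv-a), Nes (N/tv-a) or Cnp (C/tv-a), so that the promoter sets which brain cells can be infected. From these tumours came the groups mGC1_GFAP (G/tv-a;Arf-/-), mGC2_NES (N/tv-a;Arf-/-) and mGC3_CNP (C/tv-a;Arf-/-), with 3 cultures each. The NSC group held 3 cultures from the subventricular zone of adult mice, 1 from each of the same Arf-/- lines. All 12 cultures therefore lacked Arf, were untreated and were grown adherently under stem cell conditions, with 1 array per culture. Since a tumour group holds a single mouse line, line and origin cannot be told apart among tumour cultures. The labels call the tumour cultures biological replicates without saying whether each came from another animal, and p-values therefore measure the spread between these cultures. The spread within the NSC group includes differences between lines, whereas that within a tumour group does not. A single tumour group set against NSC also compares 1 line with all 3.

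Values are log2 intensities after RMA, which sets all arrays to a common distribution, so a difference of 1 is a factor of 2. Genes taken as absent from these cells (Prm2, Tnp1, Tnp2 and Odf1, made in sperm) read 5.60 to 7.42, and all 10 SOX genes had every group mean above that, the lowest being 8.38. The mean of 6 oligodendrocyte precursor markers was 12.28 to 12.52 in tumour arrays and 10.19 to 10.31 in NSC arrays, with 6 of 6 above the absent reading on both sides. That of 7 astrocyte markers was 7.69 to 8.29 in tumour arrays, with 3 of 7 above the absent reading, and 10.18 to 10.55 in NSC arrays, with 7 of 7 above it. The mean of 6 neural stem cell markers was 9.55 to 10.02 in tumour arrays, with 4 of 6 above the absent reading, and 11.56 to 11.78 in NSC arrays, with 6 of 6 above it. Neuroblast and neuron markers averaged 7.83 to 8.73 in tumour arrays and 8.33 to 8.86 in NSC arrays, while those of microglia, endothelium and pericytes lay at 6.08 to 6.78 in tumour arrays and 6.09 to 6.56 in NSC arrays. By limma, 4 of 6 precursor markers were higher in tumour cultures and Olig1 and Olig2 were not called. Of the 7 astrocyte markers, 5 were lower, Aldoc was higher and Slc1a2 was not called, and 4 of 6 stem cell markers were lower, with Fabp7 and Vim not called. For comparison, 17.6% of all probe sets were called higher and 19.2% lower. The part of these markers in the SOX differences below was not tested. In such bulk cultures, fewer cells of a type and less RNA per cell cannot be told apart.

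Tumour cultures were first set against NSC cultures, to see how far the SOX genes separate both kinds of cell. The SOXD genes Sox5 and Sox6 were higher in tumour cultures, Sox1, Sox3, Sox21, Sox11 and Sox9 were lower, and Sox2, Sox4 and Sox8 did not pass. By limma's test, adjusted for all probe sets by Benjamini and Hochberg, 7 of 10 were called at an adjusted p under 0.05, against 36.7% of all probe sets. Lower in tumour cultures were 5 of 10, against 19.2% of all probe sets, and higher were 2 of 10, against 17.6%. The median log2 difference of the 10 genes was -0.58, against 0.01 for all probe sets. The arrays of both sides did not overlap for 6 of 10, against 27.3% of all probe sets.

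**Figure D1:**
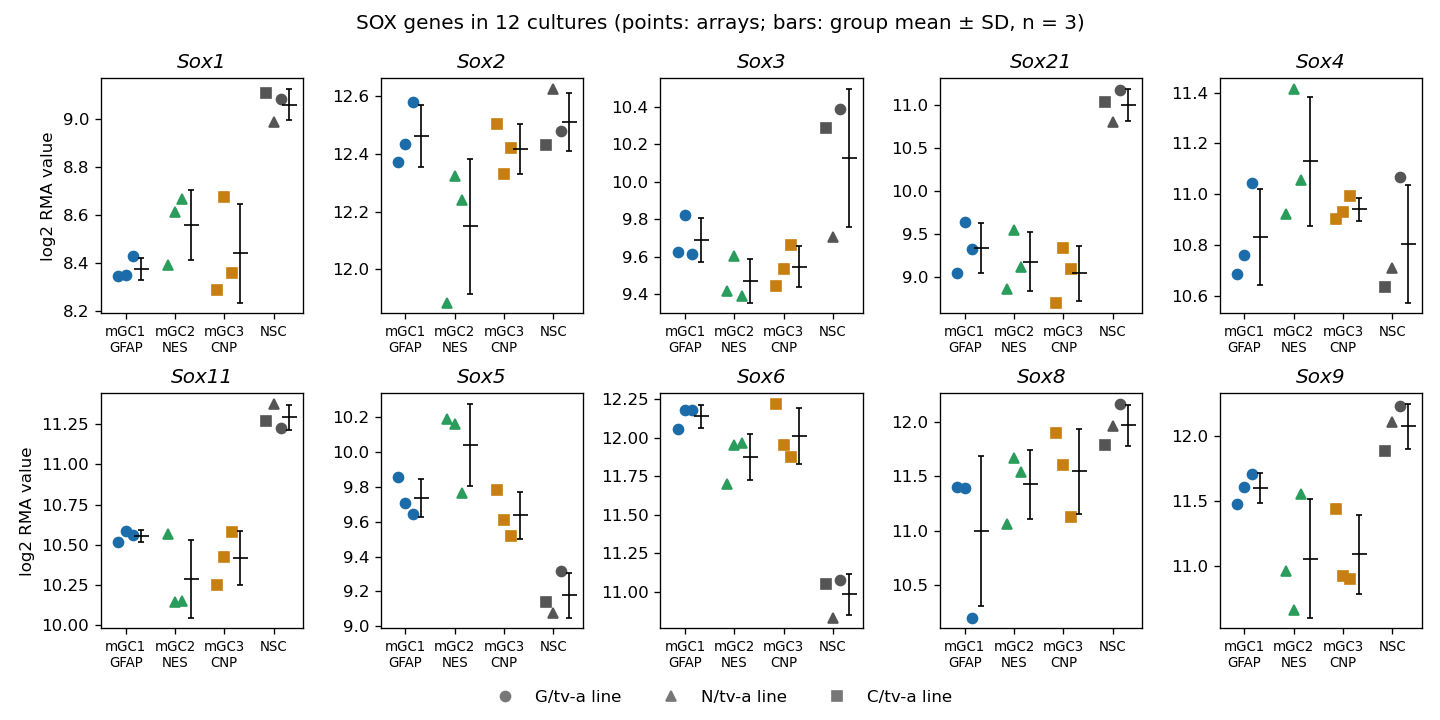
Log2 RMA values of the 10 SOX genes (vertical axes, scaled per gene) in the mGC1_GFAP, mGC2_NES, mGC3_CNP and NSC groups, with 1 point per array shaped by mouse line and a bar for the group mean ± SD (n = 3). All 9 tumour arrays lie above all 3 NSC arrays for Sox5 and Sox6, and below them for Sox1, Sox21, Sox11 and Sox9.

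Among the SOXB1 genes, Sox1 is an early marker of the neural lineage. Its log2 level was 8.35, 8.35 and 8.43 in mGC1_GFAP, 8.39, 8.61 and 8.67 in mGC2_NES, 8.29, 8.67 and 8.36 in mGC3_CNP, and 9.11, 8.99 and 9.08 in the C/tv-a, N/tv-a and G/tv-a NSC cultures. Every tumour array lay below every NSC array. The tumour minus NSC difference was -0.60 ± 0.08 (SE, limma adjusted p = 0.000155), a level 1.52-fold lower in tumour cultures.

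Sox2, the SOXB1 gene that keeps stem cells self-renewing, had log2 levels of 12.37, 12.43 and 12.58 in mGC1_GFAP, 11.88, 12.32 and 12.24 in mGC2_NES, 12.50, 12.33 and 12.42 in mGC3_CNP, and 12.43, 12.62 and 12.48 in the NSC cultures in the same order of lines. All 3 mGC2_NES arrays lay below every NSC array, as did mGC1_GFAP replicate 1 and mGC3_CNP replicates 2 and 3, while the other 3 tumour arrays lay within the NSC range. Over all tumour cultures the difference from NSC was -0.17 ± 0.09 and did not pass (limma adjusted p = 0.184), with a 95% interval of -0.37 to 0.03. For mGC2_NES alone it was -0.36 ± 0.11 (limma adjusted p = 0.0251). Without the mGC2_NES replicate 1 culture that difference was -0.23 (limma adjusted p = 0.0841), and without the N/tv-a NSC culture it was -0.31 (limma adjusted p = 0.0916), so the call rests on both.

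Sox3, the X-linked SOXB1 gene, read 9.62, 9.82 and 9.61 in mGC1_GFAP, 9.42, 9.60 and 9.39 in mGC2_NES, 9.44, 9.53 and 9.66 in mGC3_CNP, and 10.29, 9.71 and 10.39 in the C/tv-a, N/tv-a and G/tv-a NSC cultures. The N/tv-a NSC culture lay below the highest mGC1_GFAP array, so the sides overlapped, and the C/tv-a and G/tv-a NSC cultures stood above all tumour arrays. The difference was -0.56 ± 0.12 (limma adjusted p = 0.00377). Because Sox3 lies on the X chromosome, its level was also read by whether a culture had Y-linked transcripts. Tumour cultures with Y-linked transcripts read 9.39 to 9.82 (n = 4) and those without 9.44 to 9.66 (n = 5), while NSC cultures with them read 9.71 and 10.39 (n = 2) and the 1 without read 10.29. Every mGC3_CNP culture was without Y-linked transcripts, while mGC1_GFAP and mGC2_NES each held cultures with and without them. The part of this in comparisons with mGC3_CNP was not tested. These transcripts do not assign a single sex to every culture, since the G/tv-a NSC culture had them beside Xist, the transcript of the inactive X, at 11.86. In mGC2_NES replicate 2, which was without them, Xist read 9.27, against 11.91 to 12.61 in the other cultures without them. Sox3 was thus lower in tumour cultures of either kind than in all NSC cultures but that of the N/tv-a line.

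Sox21, the SOXB2 gene, had the largest difference of the 10. Its log2 level was 9.05, 9.64 and 9.33 in mGC1_GFAP, 8.87, 9.55 and 9.12 in mGC2_NES, 8.71, 9.34 and 9.10 in mGC3_CNP, and 11.03, 10.80 and 11.17 in the C/tv-a, N/tv-a and G/tv-a NSC cultures. All 9 tumour arrays lay more than a log2 unit below the lowest NSC array. The difference was -1.81 ± 0.17 (limma adjusted p = 6.37e-06), a 3.51-fold lower level in tumour cultures, and its size ranked at 647 among all 21780 probe sets. SOX factors recognise the core ACAAT, or ATTGT on the other strand, and 27.7% of 32851 promoter windows of 250 bases before a start site in RefSeq hold it. The Sox21 window, shown as that of the gene with the largest fall, lies at chr14:118237031-118237280 on the minus strand of GRCm38.p6, holds no such core and has a GC content of 65.2%, against a median of 52.4% over all windows.
Sox21 promoter: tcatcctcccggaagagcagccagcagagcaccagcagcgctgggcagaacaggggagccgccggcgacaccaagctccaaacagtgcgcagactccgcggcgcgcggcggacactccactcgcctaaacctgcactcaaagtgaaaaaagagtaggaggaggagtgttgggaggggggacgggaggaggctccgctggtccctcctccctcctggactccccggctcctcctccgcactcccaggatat

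For the SOXC pair, Sox11 was lower in tumour cultures and Sox4 was not called. Sox11, which promotes neuronal gene expression, read 10.51, 10.59 and 10.56 in mGC1_GFAP, 10.56, 10.14 and 10.15 in mGC2_NES, 10.25, 10.43 and 10.58 in mGC3_CNP, and 11.27, 11.38 and 11.23 in the NSC cultures of the C/tv-a, N/tv-a and G/tv-a lines. No tumour array reached the lowest NSC array. The difference was -0.87 ± 0.09 (limma adjusted p = 2.14e-05), or 1.83-fold lower in tumour cultures. Sox4, the other SOXC gene of the 10, read 10.69, 10.76 and 11.04 in mGC1_GFAP, 10.92, 11.41 and 11.05 in mGC2_NES, 10.90, 10.93 and 10.99 in mGC3_CNP, and 10.64, 10.71 and 11.07 in the NSC cultures. Tumour and NSC arrays lay in one range, with the G/tv-a NSC culture above 8 of 9 tumour arrays and the others below nearly all. The Sox4 difference was 0.16 ± 0.12 (limma adjusted p = 0.330), with a 95% interval of -0.10 to 0.42.

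Both SOXD genes were higher in tumour cultures. Sox6 read 12.06, 12.18 and 12.18 in mGC1_GFAP, 11.70, 11.95 and 11.97 in mGC2_NES, 12.22, 11.95 and 11.87 in mGC3_CNP, and 11.05, 10.83 and 11.08 in the C/tv-a, N/tv-a and G/tv-a NSC cultures. The lowest tumour array stood well above the highest NSC array. Its difference was 1.02 ± 0.09 (limma adjusted p = 3.44e-06), or 2.03-fold higher in tumour cultures. Sox5 read 9.86, 9.71 and 9.64 in mGC1_GFAP, 10.19, 10.16 and 9.77 in mGC2_NES, 9.78, 9.61 and 9.52 in mGC3_CNP, and 9.14, 9.07 and 9.32 in the NSC cultures. Here too the sides did not overlap, and 2 mGC2_NES arrays were the highest of all. The Sox5 difference was 0.63 ± 0.10 (limma adjusted p = 0.000358), or 1.55-fold higher in tumour cultures.

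Promoter windows in RefSeq were found for 8 of the 10 genes, 13 windows in all, and not for Sox3 and Sox9. The ACAAT core was in 4 of the 13 windows, against 27.7% of all windows. These were 1 of Sox5 and 3 of the 6 of Sox6, and none of those of Sox1, Sox2, Sox21, Sox4, Sox11 and Sox8. The 4 windows with a core had GC contents of 34.0% to 41.6%. The Sox6 windows without one had 45.2%, 60.8% and 41.6%, so windows with and without a core overlapped in GC content. Windows of the genes with no core in any window had 50.8% to 72.0%. The part of base composition in where cores were found was not tested. Below are the Sox5 window at chr6:143947107-143947356 and the Sox6 window with the most cores, at chr7:115801610-115801859, both on the minus strand of GRCm38.p6 and shown because these are the 2 genes that were higher in tumour cultures. Capitals mark the ACAAT core on either strand, of which the Sox5 window has 1 and the Sox6 window 3, and their GC contents are 39.6% and 34.0%. A core in a window is a description of its letters, and no binding was measured.
Sox5 promoter: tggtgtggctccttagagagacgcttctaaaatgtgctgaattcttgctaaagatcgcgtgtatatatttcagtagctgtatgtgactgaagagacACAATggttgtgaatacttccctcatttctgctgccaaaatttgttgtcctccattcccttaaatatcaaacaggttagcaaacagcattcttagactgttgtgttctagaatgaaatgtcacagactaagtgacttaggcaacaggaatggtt
Sox6 promoter: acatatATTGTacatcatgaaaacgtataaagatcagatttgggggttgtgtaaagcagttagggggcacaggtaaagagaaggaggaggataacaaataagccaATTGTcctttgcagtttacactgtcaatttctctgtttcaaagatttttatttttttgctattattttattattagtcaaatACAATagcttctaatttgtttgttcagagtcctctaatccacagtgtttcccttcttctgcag

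Of the SOXE genes, Sox9 was lower in tumour cultures and Sox8 was not called. Sox9, which starts the switch of progenitors to glia, read 11.48, 11.61 and 11.71 in mGC1_GFAP, 10.96, 10.66 and 11.56 in mGC2_NES, 11.44, 10.93 and 10.91 in mGC3_CNP, and 11.89, 12.11 and 12.23 in the C/tv-a, N/tv-a and G/tv-a NSC cultures. All tumour arrays lay below the NSC arrays, and of the tumour groups mGC1_GFAP had the mean closest to them. The difference was -0.83 ± 0.17 (limma adjusted p = 0.00223), or 1.77-fold lower in tumour cultures. Sox8, which supports SOX10 in maturing oligodendrocytes, read 11.40, 11.39 and 10.20 in mGC1_GFAP, 11.07, 11.67 and 11.54 in mGC2_NES, 11.90, 11.61 and 11.13 in mGC3_CNP, and 11.79, 11.96 and 12.17 in the NSC cultures. Only mGC3_CNP replicate 1 reached into the NSC range, and mGC1_GFAP replicate 3 lay far below every other array. The Sox8 difference was -0.65 ± 0.25 (limma adjusted p = 0.0639), with a 95% interval of -1.20 to -0.10. It was called in 4 fits that left out 1 culture each, without mGC1_GFAP replicate 1 (-0.72, limma adjusted p = 0.0441), replicate 2 (-0.71, limma adjusted p = 0.0454) or replicate 3 (-0.52, limma adjusted p = 0.0341), or without mGC3_CNP replicate 1 (-0.71, limma adjusted p = 0.0469).

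Each tumour group was next set against the same 3 NSC cultures, so these comparisons share their NSC arrays and are not independent. Against NSC, 7 of 10 genes were called for mGC1_GFAP (29.3% of all probe sets), 8 of 10 for mGC2_NES (34.9%) and 7 of 10 for mGC3_CNP (30.3%). Sox1, Sox3, Sox21 and Sox11 were lower and Sox5 and Sox6 higher in every tumour group. Sox21 differed from NSC by -1.66 ± 0.21 in mGC1_GFAP, by -1.82 ± 0.21 in mGC2_NES and by -1.95 ± 0.21 in mGC3_CNP, with limma adjusted p-values of 0.0001, 3.96e-05 and 2.67e-05 in that order. For Sox6 they were 1.15 ± 0.11, 0.89 ± 0.11 and 1.03 ± 0.11, with limma adjusted p-values of 1.14e-05, 6.87e-05 and 2.58e-05. Sox5 differed by 0.56 ± 0.12, 0.86 ± 0.12 and 0.46 ± 0.12, and Sox11 by -0.74 ± 0.12, -1.01 ± 0.12 and -0.88 ± 0.12, all 6 called. Sox1 differed by -0.68 ± 0.10, -0.50 ± 0.10 and -0.62 ± 0.10, also all called.

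Sox9 was called lower in mGC2_NES (-1.02 ± 0.21, limma adjusted p = 0.00244) and in mGC3_CNP (-0.98 ± 0.21, limma adjusted p = 0.00346). In mGC1_GFAP it differed by -0.48 ± 0.21 and did not pass (limma adjusted p = 0.114), although its 3 arrays lay below the 3 NSC arrays. With only those 6 arrays in the fit it passed (limma adjusted p = 0.0160), as it did without mGC2_NES replicate 3 (limma adjusted p = 0.0391). Sox8 was called lower in mGC1_GFAP (-0.97 ± 0.31, limma adjusted p = 0.0327), where leaving out replicate 3 gave -0.57 (limma adjusted p = 0.0926). In mGC2_NES it differed by -0.55 ± 0.31 (limma adjusted p = 0.207) and in mGC3_CNP by -0.43 ± 0.31 (limma adjusted p = 0.352). The mGC1_GFAP call of Sox8 also failed without any 1 of the NSC cultures (limma adjusted p from 0.0527 to 0.0973).

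Sox3 differed by -0.44 ± 0.15 in mGC1_GFAP (limma adjusted p = 0.04999), -0.66 ± 0.15 in mGC2_NES (limma adjusted p = 0.00541) and -0.58 ± 0.15 in mGC3_CNP (limma adjusted p = 0.0125). The call in mGC1_GFAP sat at the threshold and was lost in 11 of 12 fits that left out 1 array. That in mGC3_CNP was lost without the C/tv-a NSC culture (-0.50, limma adjusted p = 0.0536) or the G/tv-a NSC culture (-0.45, limma adjusted p = 0.0513). Sox4 was called in no tumour group. Its largest difference was that of mGC2_NES, 0.33 ± 0.14 (limma adjusted p = 0.108), which passed without the G/tv-a NSC culture at 0.46 (limma adjusted p = 0.0312).

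**Figure D2:**
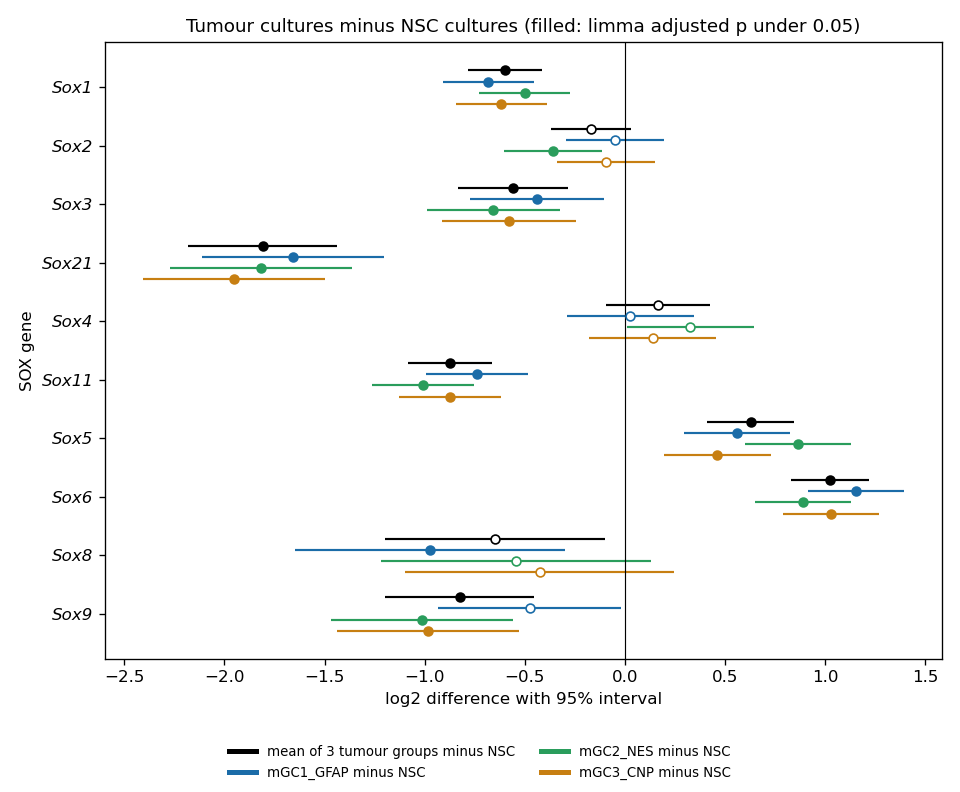
Log2 difference from NSC (horizontal axis, with its 95% interval from limma) of each SOX gene for the mean of the 3 tumour groups and for mGC1_GFAP, mGC2_NES and mGC3_CNP alone, with filled points where the limma adjusted p was under 0.05. Sox21 lies furthest below 0 at -1.81 and Sox6 furthest above at 1.02, with the same sign in all 3 groups, and the intervals of Sox8 are the widest.

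The tumour groups were then compared with each other on the 9 tumour arrays, which asks whether the SOX genes carried a mark of the line. None of the 10 was called. For mGC1_GFAP minus mGC3_CNP, limma called 0 of 10, against 0.487% of all probe sets, and 1 of 10 had an unadjusted p under 0.05, against 12.9% of all probe sets. For mGC1_GFAP minus mGC2_NES it called 0 of 10, against 6.13% of all probe sets, and 5 of 10 had an unadjusted p under 0.05, against 20.6% of all probe sets. For mGC2_NES minus mGC3_CNP it called 0 of 10, against 0.459%, with 2 of 10 at an unadjusted p under 0.05, against 13.3% of all probe sets. The F test of any difference among the 3 groups also called 0 of 10, against 4.05%, and 1 of 10, Sox5, had an unadjusted p under 0.05 (limma adjusted p = 0.177), against 19.5% of all probe sets.

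Sox5 in mGC2_NES minus mGC3_CNP had the smallest unadjusted p of the pairwise comparisons, a difference of 0.40 ± 0.12 (limma adjusted p = 0.207), and the arrays of both groups overlapped. In mGC1_GFAP minus mGC2_NES it was -0.31 ± 0.12 (limma adjusted p = 0.197). Sox9 was 0.51 ± 0.22 in mGC1_GFAP minus mGC3_CNP (limma adjusted p = 0.374), the lone gene of the 10 whose arrays did not overlap there, against 19.4% of all probe sets. In mGC1_GFAP minus mGC2_NES it was 0.54 ± 0.22 (limma adjusted p = 0.199). Sox2 was 0.31 ± 0.12 in mGC1_GFAP minus mGC2_NES (limma adjusted p = 0.161) and -0.27 ± 0.12 in mGC2_NES minus mGC3_CNP (limma adjusted p = 0.365), without overlap of the arrays in both. Arrays did not overlap for 3 of 10 genes in the comparison of mGC1_GFAP with mGC2_NES (Sox2, Sox3 and Sox6), against 26.5% of all probe sets, and for 1 of 10 in that of mGC2_NES with mGC3_CNP, against 18.2%.

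These misses do not show that the groups have equal levels. For Sox21 the 95% interval of mGC1_GFAP minus mGC3_CNP ran from -0.20 to 0.78, and for Sox8 from -1.30 to 0.20. For Sox6 it ran from -0.12 to 0.37 and for Sox2 from -0.22 to 0.31. For Sox9 the interval of mGC1_GFAP minus mGC2_NES ran from 0.04 to 1.03. The tumour groups could therefore differ in Sox8 and Sox9 by more than a log2 unit, whereas for Sox2 and Sox6 the bound furthest from 0 over the 3 pairs was 0.57.

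**Figure D3:**
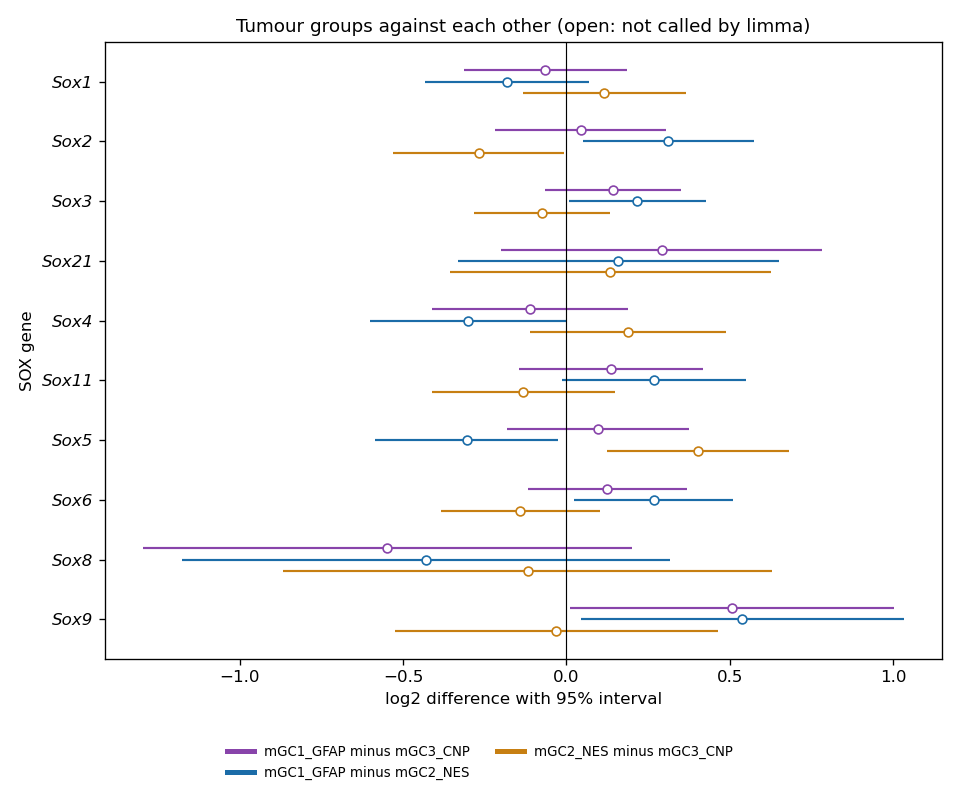
Log2 difference between tumour groups (horizontal axis, with its 95% interval from limma on the 9 tumour arrays) of each SOX gene for 3 pairs of groups. All points are open because no adjusted p was under 0.05, and the interval of Sox5 in mGC2_NES minus mGC3_CNP, around 0.40, is the one that lies furthest from 0.

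Because each line gave 1 NSC culture, tumour cultures could also be set against the NSC culture of their own line, as values without a test. Sox1, Sox3, Sox21, Sox11 and Sox9 lay below the NSC culture of their line in 9 of 9 tumour cultures, and Sox5 and Sox6 above it in 9 of 9. For all of these but Sox3 this follows from the lack of overlap between tumour and NSC arrays, which held for 27.3% of all probe sets. For Sox3 the distance was -0.70 in the G/tv-a line, -0.24 in the N/tv-a line and -0.74 in the C/tv-a line, the N/tv-a NSC culture being the one with the low Sox3 level. For Sox5 it was 0.42, 0.97 and 0.50 in the same order, the largest in the N/tv-a line. Sox4 ran in opposite directions, with all 3 tumour cultures above the NSC culture in the N/tv-a line (0.42 on average) and in the C/tv-a line (0.31), and all 3 below it in the G/tv-a line (-0.24).

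**Figure D4:**
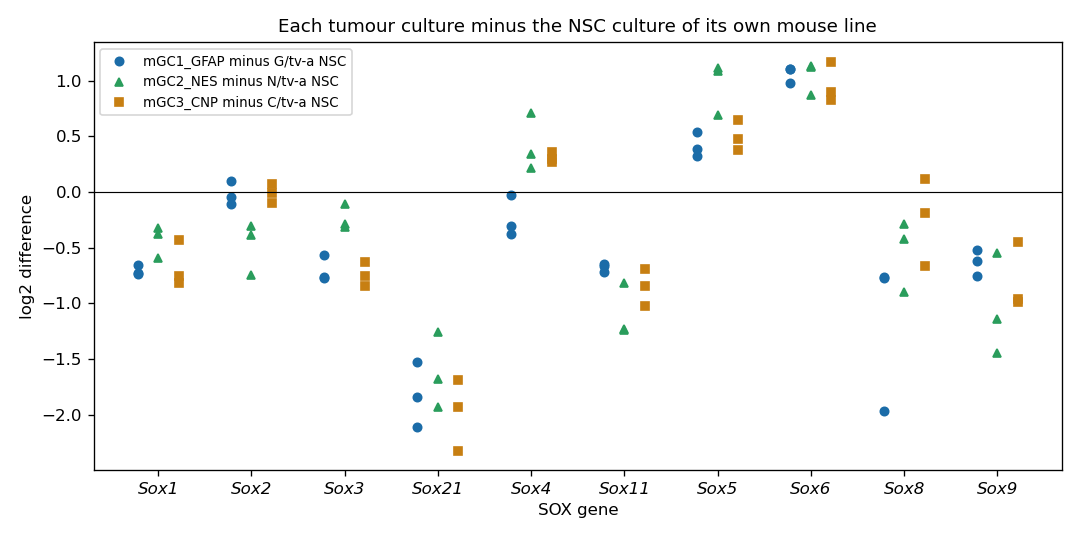
Log2 level of each tumour culture minus that of the NSC culture of its own mouse line (vertical axis) for the 10 SOX genes, with 3 tumour cultures per line. Sox5 and Sox6 points lie above 0 and those of Sox1, Sox3, Sox21, Sox11 and Sox9 below it in all 3 lines, while Sox4 points lie below 0 in the G/tv-a line and above it in the others.

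By the Euclidean distance between centred log2 profiles over the 12 arrays, the 2 nearest named genes were found for each called SOX gene. The distance follows the step between tumour and NSC cultures as well as the spread within them. Nearest to Sox6 was Cux2, a homeobox gene, at 0.246, followed by Pde4dip at 0.374. Sox5 had Hps4 at 0.376 and Zkscan14 at 0.428. Sox1 had Ccser2 at 0.302 and Mobp, a myelin protein gene, at 0.353. Sox3 had Ecm2 at 0.368 and Acot11 at 0.400, and Sox11 had Orc1, a subunit of the origin recognition complex, at 0.376 and Tmem131l at 0.393. The neighbours of Sox21 lay further off by this distance, Garem2 at 0.616 and the Wnt receptor gene Fzd3 at 0.635, as did those of Sox9, Garem1 at 0.703 and Hibadh at 0.707. The distance also grows with the size of a gene's difference, and Sox21 had the largest. Pearson r over the 12 arrays was 0.987 and 0.976 for the neighbours of Sox21, and 0.908 and 0.909 for those of Sox9. For the neighbours of the other called genes it ran from 0.928 (Acot11 with Sox3) to 0.989 (Cux2 with Sox6). No SOX gene was among the 2 nearest of another.

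Of 9 other SOX genes measured, 2 were higher in tumour cultures, against 17.6% of all probe sets, and 1 was lower, against 19.2%. The other 6 were not called, and the median difference was 0.05, that of Sox17. Of these, Sox7, Sox15, Sox17, Sox18 and Sox30 had means of 6.25 to 7.27 in tumour and NSC cultures, in the range of the absent genes. They were therefore not shown to be expressed, and Sox14 read 7.69 in tumour and 7.67 in NSC cultures. Sox10, the SOXE gene of the oligodendrocyte lineage, was at 12.63 ± 0.04 in tumour cultures (SD, n = 9) and 8.12 ± 0.09 in NSC cultures (SD, n = 3), a difference of 4.51 ± 0.05 (limma adjusted p = 4.86e-13). It is also one of the precursor markers above. It rose where its relative Sox9 fell and Sox8 was not called. Sox12, the remaining SOXC gene, was higher by 0.51 ± 0.06 (limma adjusted p = 6.69e-05), against the fall of Sox11. Sox13, the remaining SOXD gene, was lower (-0.30 ± 0.08, limma adjusted p = 0.0116), against the rise of Sox5 and Sox6, and that call was lost without the C/tv-a NSC culture (limma adjusted p = 0.0570) or the G/tv-a NSC culture (limma adjusted p = 0.0758).

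Genes tied to each SOX group by earlier work were read beside their factors, over lists chosen with results of these data known. Of 13 partners and targets of SOXB1 factors, 2 were higher, against 17.6% of all probe sets, and 6 were lower, against 19.2%. The other 5 were not called, and the median was -0.65, against 0.01 for all probe sets. Nes, an intermediate filament gene with a SOX and POU enhancer, was lower (-2.07 ± 0.15, limma adjusted p = 6.52e-07), as were Nr2e1, a nuclear receptor gene of adult stem cells (-1.76 ± 0.10), the POU partner Pou3f4 (-1.41 ± 0.11), the Notch target Hes5 (-1.21 ± 0.21) and the hedgehog effector Gli2 (-1.03 ± 0.10). The Notch ligand gene Jag1 was higher (1.45 ± 0.12, limma adjusted p = 2.55e-06). Gli2 in tumour cultures, at 7.32, lay in the range of the absent genes, so its fall is a lower bound. Nes and Nr2e1 are also among the neural stem cell markers above.

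Of 10 partners and targets of SOX9, 6 were higher, against 17.6% of all probe sets, and 2 were lower, against 19.2%. The other 2 were not called, and the median was 0.96. The cartilage matrix genes Acan, which encodes aggrecan, and Hapln1, a link protein gene, were higher by at least 4.78 ± 0.13 (limma adjusted p = 2.47e-10) and 5.54 ± 0.49 (limma adjusted p = 3.99e-06), both lower bounds because NSC cultures read 6.74 and 4.70. The collagen gene Col9a1 was higher by 2.48 ± 0.20 and Mmd2 by 1.54 ± 0.25. Apcdd1, a Wnt inhibitor gene, was lower (-1.74 ± 0.28, limma adjusted p = 0.000456), and so was Nfia in both of its probe sets (-0.44 ± 0.09 and -0.31 ± 0.08). Without the G/tv-a NSC culture 1 gene of the list in place of 2 was lower. Members of the list thus lay on both sides while Sox9 itself was lower in tumour cultures.

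Of 5 SOXC targets in neurons, 1 was higher, against 17.6% of all probe sets, and 2 were lower, against 19.2%. The other 2, Tubb3 and Dcx, were not called, and the median was 0.00, that of Tubb3. Tubb3 had a mean of 7.38 in tumour and in NSC cultures, in the range of the absent genes. Dcx differed by 1.88 ± 0.73 (limma adjusted p = 0.0672), with tumour arrays from 6.42 to 10.61. Tead2, a Hippo pathway transcription factor gene, was lower (-3.18 ± 0.11, limma adjusted p = 1.56e-09), again as a lower bound with tumour cultures at 6.62. Prox1, a homeobox gene of young neurons, was lower (-0.83 ± 0.11) and the microtubule gene Map2 was higher (0.37 ± 0.08). Of 6 SOXE targets of the oligodendrocyte and Schwann cell lineages, all 6 were higher, against 17.6% of all probe sets, with a median of 3.17. They were the neuregulin receptor gene Erbb3 (at least 5.81 ± 0.09), Dusp15 (4.13 ± 0.10), the PDGF receptor gene Pdgfra (3.80 ± 0.06), the myelin regulator Myrf (2.54 ± 0.19), the myelin gene Mbp (1.79 ± 0.35) and the connexin gene Gjb1 (at least 0.91 ± 0.12), with limma adjusted p-values between 3.18e-12 and 0.00174. These are genes that SOX10 is known to switch on, and Pdgfra is also one of the precursor markers above.

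**Figure D5:**
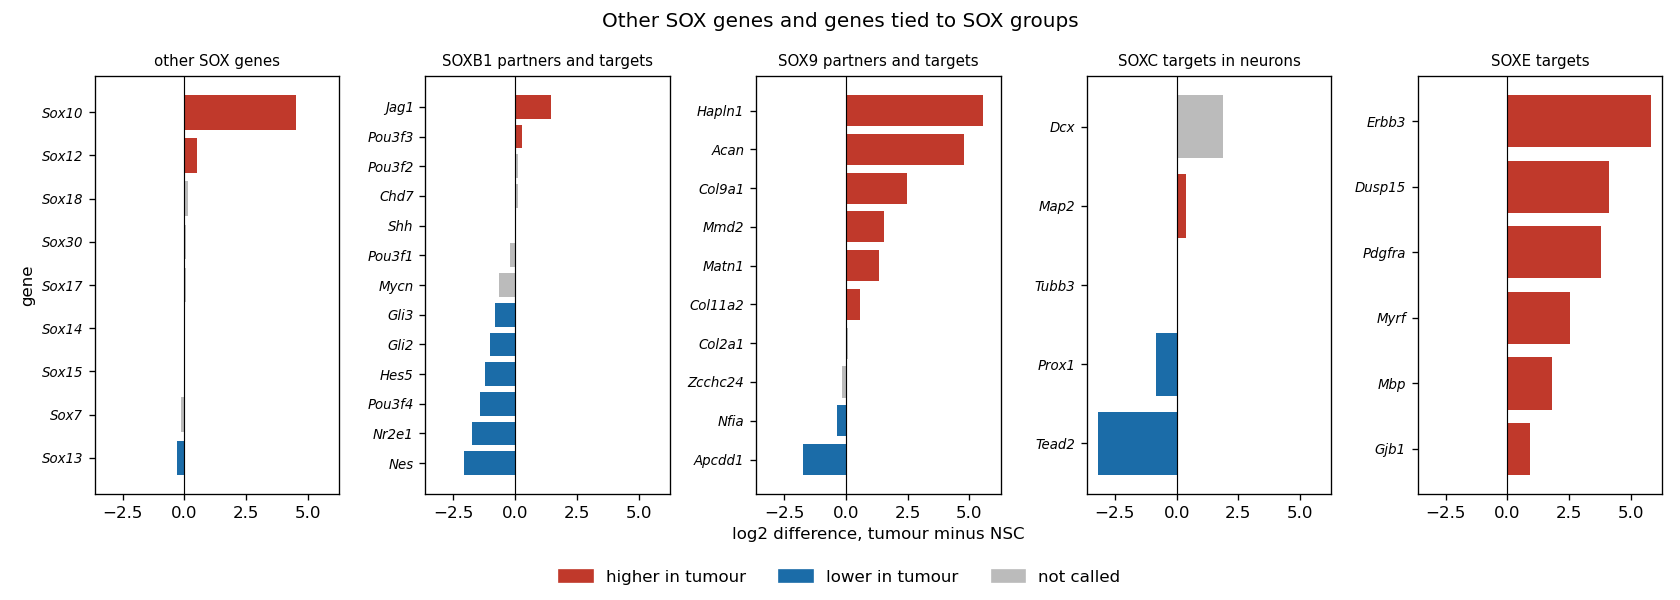
Log2 difference of tumour minus NSC cultures (horizontal axis) for 9 other SOX genes and for the genes of 4 lists of SOX partners and targets, as bars coloured by the limma call. All 6 SOXE targets lie above 0, while the SOXB1 list has 6 genes lower and 2 higher. Of all probe sets, 19.2% were called lower and 17.6% higher.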

How the data were processed

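RNA of 12 cultures was measured on Affymetrix whole-transcript arrays, 1 per culture. Per the submitters' processing notes, the authors used Affymetrix Expression Console and RMA, and the deposited values are on the log2 scale. Software versions are not given in the sources searched. RMA gives arrays a common distribution, so a shift common to most genes is not visible. Array medians lay between 7.60 and 7.66. Arrays hold no read depth, and their number limits the precision.

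The table held 28270 probe sets. The platform annotation of 2016 gave 1 symbol to 21780, several to 1617 and did not list 4873. Gene identifiers of 21689 matched RefSeq (GRCm38.p6). No further scaling or filter was applied.

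Tests used limma 3.58.1 in R 4.3.3 (lmFit and eBayes, two-sided, Benjamini-Hochberg over 21780 probe sets, called at an adjusted p under 0.05) and were tested on simulated data. Comparisons with NSC were fitted on 12 arrays, the overall one as the average over 3 tumour groups minus NSC, and comparisons among tumour groups on 9. A list gene with several probe sets was called where most of them were called in 1 direction.

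The members and lists were chosen with earlier results of these data known. All 10 members are named. Of each list up to 6 called genes with the smallest adjusted p are named, and of each called member the 2 nearest profiles. Of the other SOX genes listed, Sox2ot had no probe set with 1 symbol. Some listed items are not reported here. Alternatives were each array centred on its median, a mean above 7, a trended or robust prior, other sets of arrays in the fit, mouse line or replicate number as a block, and leaving out each array.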

Additional observations from a re-analysis of the deposited data

Results flagged for a closer look

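In 3 SOX genes 1 tumour array stood apart from the other 8 by a gap that Dixon's test at the 95% level marks, which chance does in about 1 of 20 groups. Sox2 read 11.88 in mGC2_NES replicate 1, the lowest tumour value, with the next at 12.24. Sox4 read 11.41 in mGC2_NES replicate 2, the highest, with the next at 11.05. Sox8 read 10.20 in mGC1_GFAP replicate 3, the lowest, with the next at 11.07. Without the first of these cultures the fall of Sox2 in mGC2_NES was not called, and without the last the fall of Sox8 in mGC1_GFAP was not called but that over all tumour cultures was. No reason for the 3 values was tested.

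Sox4 moved in opposite directions between lines. All 3 tumour cultures lay above the NSC culture of their own line in the C/tv-a line (0.31 on average) and in the N/tv-a line (0.42), and all 3 lay below it in the G/tv-a line (-0.24). The difference between lines was not tested, because there was 1 NSC culture per line. In the G/tv-a line the NSC culture had the highest Sox4 of the 3 NSC cultures.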

How the results depend on the processing

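The 7 SOX calls of tumour against NSC held in all 17 alternatives run, and leaving out 1 array gave 7 to 8 called genes. With 1 array left out, 5 to 7 genes were called for mGC1_GFAP, 7 to 9 for mGC2_NES and 6 to 7 for mGC3_CNP against NSC, and 0 between tumour groups. Of the 713 values recomputed with all arrays of a comparison kept, 703 stayed on their side of the threshold or within 1.5 times the count. Among all probe sets, those called in mGC1_GFAP minus mGC3_CNP numbered 106, 65 with all 12 arrays in the fit and 24 to 106 with 1 array left out, those in mGC1_GFAP minus mGC2_NES 1336 and 534 to 1619, those in mGC2_NES minus mGC3_CNP 100 and 42 to 133, and those in the F test 882 and 222 to 945. Fits on fewer arrays have fewer degrees of freedom, and the cause of each change was not tested.

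The labels do not say that a replicate number marks anything shared, and the correlations do not settle it. Arrays of the same number correlated at 0.00 to 0.25 in their deviations from the group mean, 5 of 9 such pairs above 0.1, and 6 of 9 arrays correlated best with their own number. All 3 pairs of mGC2_NES with mGC3_CNP were above 0.1, and not all of the other pairs. With a replicate block, 0 of 10 SOX genes were called in each comparison of tumour groups, and 74, 1436 and 121 probe sets in those of mGC1_GFAP with mGC3_CNP, mGC1_GFAP with mGC2_NES and mGC2_NES with mGC3_CNP. The adjusted p of the F test by limma was then 0.0941 for Sox21, against 0.702 without the block, and 0.0655 for Sox5, against 0.177, and for Sox21 in mGC1_GFAP minus mGC3_CNP it was 0.126, against 0.638.

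Leaving out 1 array turned the sign of 14 values, none of them called with all arrays. Against NSC these were Sox4 (-0.080 to 0.16) and Sox2 (-0.11 to 0.0067) in mGC1_GFAP. Between tumour groups they were Sox1 (-0.14 to 0.05) and Sox2 (-0.016 to 0.089) in mGC1_GFAP minus mGC3_CNP, and Sox21 (-0.051 to 0.29), Sox8 (-0.33 to 0.062) and Sox9 (-0.28 to 0.17) in mGC2_NES minus mGC3_CNP.

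The fall of Sox3 in mGC1_GFAP was not called with a trended prior (adjusted p = 0.0520) or with only both sides in the fit (adjusted p = 0.120), nor were those of Sox8 in mGC1_GFAP (adjusted p = 0.0628) and Sox2 in mGC2_NES (adjusted p = 0.0654) with only both sides, while that of Sox8 in mGC2_NES then was (adjusted p = 0.0450), all by limma. Of the lists, Matn1, a SOX9 target, was called at an adjusted p of 0.0467 and lost in 10 alternatives. Counts of list genes changed by over 1.5 times in these cases: other SOX genes lower, 1, were 2 with arrays centred or without mGC2_NES replicate 2 and 0 without the C/tv-a or G/tv-a NSC culture. SOXB1 genes higher, 2, were 1 without the G/tv-a NSC culture, as were SOX9 genes lower, and SOXC genes higher, 1, were 2 without mGC1_GFAP replicate 2 or mGC2_NES replicate 1.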
